A study of Mus musculus with 4 samples.

Results

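Loss of Yap was described here from 1 library of Yap-/- and 1 library of Yap+/- mouse small intestinal organoids, both grown for 24 hours from seeded crypts. A gene was included if either library reached 1 RPKM for it, which gave 10710 of the 22632 genes measured. RPKM is the number of reads of a gene scaled by its length and by the library total. Both genotypes carried Villin-Cre, which recombines floxed alleles in intestinal epithelium: Yap+/fl;VillinCre organoids (Yap+/-) kept 1 working copy of Yap1, and Yapfl/fl;VillinCre organoids (Yap-/-, called without Yap here after this genotype) had both alleles floxed. The share of cells that had recombined was not measured. Another library, from YapTg organoids grown without doxycycline, gave a second reference level for each gene. YapTg carries a wild-type Yap transgene that doxycycline switches on through a Cre-driven transactivator, and the labels do not name its Cre driver. The remaining library came from YapTg organoids grown with the drug, called induced here. Each genotype or treatment had 1 library, and the number of mice or cultures behind it is not stated, so differences are given as sizes with no test.

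YAP, the protein of Yap1, is a transcriptional co-activator that enters the nucleus when the Hippo kinases are inactive and binds DNA through TEAD factors. In the adult intestine it is largely dispensable for homeostasis but takes part in the response of the epithelium to injury. Isolating and embedding crypts is itself an injury-like step, and young organoids pass through a spheroid stage before they bud.

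Yap1 was at 16.7 RPKM in Yap+/-, 3.35 RPKM in Yap-/-, 25.1 RPKM in YapTg without the drug and 1039 RPKM with it. The Yap-/- library had the lowest level, 4.99 times below Yap+/- (95% interval 4.64 to 5.36). The libraries held between 44934170 and 75269003 reads, and 10530 to 10722 genes per library reached 1 RPKM. All 12 epithelial markers, among them Epcam, Vil1 and Cdh1, were above that level. Of 21 stromal, endothelial and muscle markers 2 reached it (Tagln and Vim), 7 were listed at 0 in every library (Cdh5, Col3a1, Col6a1, Dcn, Des, Lum and Sox10), and their summed level was 5.91 RPKM in Yap+/- and 5.87 RPKM in Yap-/-. Of 22 immune and red blood cell markers 2 reached it (Lyz2 and Cd52), with sums of 4.38 and 5.29 RPKM. Y-linked genes summed to 8.79 RPKM in Yap+/-, 11.2 RPKM in Yap-/-, 0.0029 RPKM in YapTg without the drug and 0 RPKM with it, so uninduced YapTg also differed from the pair in sex chromosomes, and the part of this in its levels was not tested. By the higher level of the pair, the lowest members were Tcfcp2l1 and Lyz2 at 1.001 RPKM, and the nearest genes left out were Nfkbie at 0.9999 and Gm9780 at 0.9985 RPKM.

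Most genes lay close together in the pair. The log2 ratio of Yap-/- over Yap+/-, computed on RPKM plus 1, had a median of 0.05 over all members and a median size of 0.09. Of the 10710 genes, 9259 (86.5%) lay within 1.2-fold, and the ratios from the 5th to the 95th percentile ran from -0.28 to 0.34. Above 0 lay 7017 genes (65.5%), the share to set beside the counts above or below 0 given for groups. Past 2-fold were 97 genes (0.906%), of which 36 were higher (0.336% of all) and 61 lower (0.57%) in Yap-/-. At 1.5-fold the counts were 144 higher (1.34%) and 168 lower (1.57%). For 89 of the 97 genes a 95% interval of the fold that covers counting error alone excluded 1. Among established gene names 22 were higher and 52 lower of 9676, and among predicted genes and clone names 14 were higher and 9 lower of 1034. The share past 2-fold was 0.788% at 1 to 5 RPKM, 0.687% at 5 to 20 RPKM and 0.768% at 20 to 100 RPKM. It was 4.67% for the 450 genes at 100 RPKM or more, where 16 genes were higher and 5 lower.

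**Figure D1:**
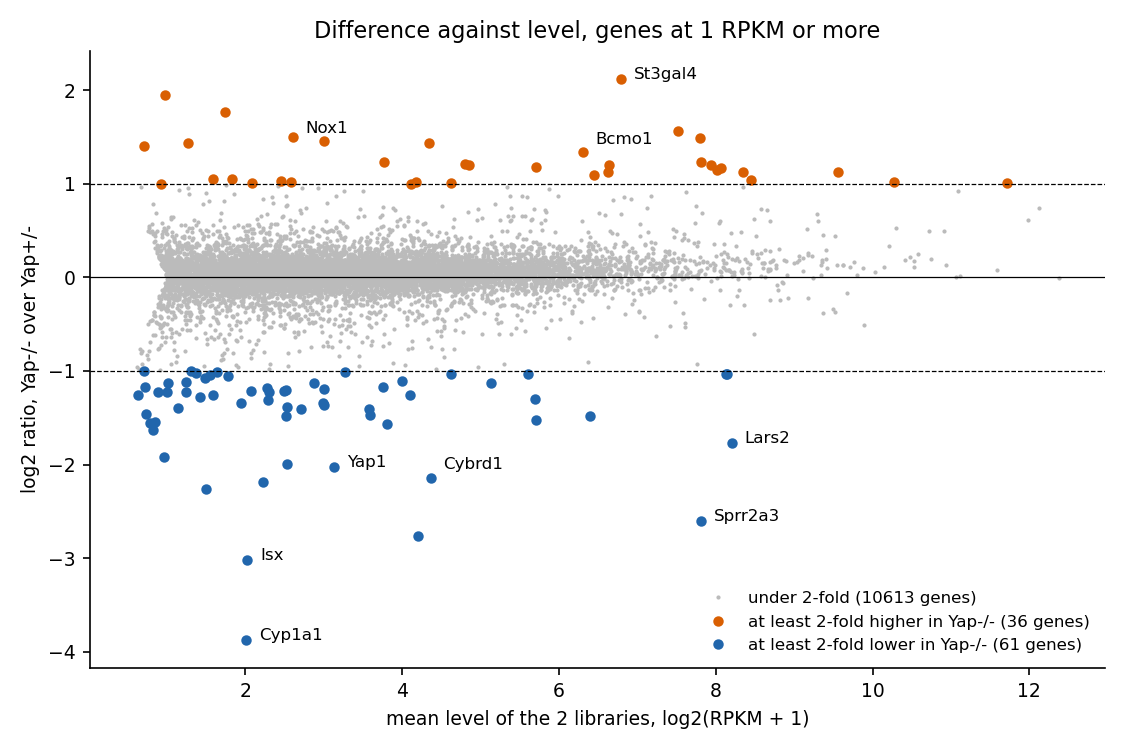
Log2 ratio of Yap-/- over Yap+/- (vertical axis) against the mean log2(RPKM + 1) of both libraries (horizontal axis), 1 point per gene, for the 10710 genes included. Dashed lines mark 2-fold, with 36 genes above them and 61 below. Among the genes labelled, Cyp1a1 (-3.87) and Isx (-3.02) lie lowest and St3gal4 (2.12) lies highest.

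The 50 genes nearest to Yap1 in the GRCm38 gene order were also examined, since a floxed locus keeps neighbouring sequence of its strain of origin. At the floor of 1 RPKM were 17 of them, 0 of these were past 2-fold, and their median log2 ratio was 0.01. The furthest was Mmp7, which encodes the protease that activates Paneth cell alpha-defensins, at 62.5 and 95.2 RPKM in the pair (log2 ratio 0.60). Without it the largest difference was 0.21 in size. Birc2 and Birc3, inhibitors of apoptosis that lie next to Yap1, had log2 ratios of -0.01 and -0.08. Of the 19 Hippo components and TEAD partners at the floor, 2 were past 2-fold, Yap1 and Jub, which encodes the LIM protein ajuba that binds LATS kinases. Jub was at 2.5, 0.608, 2.43 and 72.3 RPKM in Yap+/-, Yap-/-, uninduced YapTg and induced YapTg, lowest without Yap and nearly level in Yap+/- and uninduced YapTg. Wwc1, for the scaffold KIBRA upstream of the Hippo kinases, was at 21.7 and 10.8 RPKM (log2 ratio -0.94), and the group median was 0.02.

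Genes of dietary carotenoid and vitamin A handling differed in opposite directions. Isx encodes an intestinal homeobox repressor that is known to hold down Bcmo1 and Scarb1. Isx was at 10.6 RPKM in Yap+/-, 0.429 RPKM in Yap-/-, 72.2 RPKM in YapTg without the drug and 65.6 RPKM with it, 24.7 times lower in Yap-/- than in Yap+/- (95% interval 16.7 to 38.2). Bcmo1, whose enzyme cleaves beta-carotene to retinal, was at 48.6, 125, 2.36 and 1.64 RPKM in the same order. Scarb1, a scavenger receptor that takes up lipids and carotenoids, was at 11.3, 32.2, 4.83 and 3.94 RPKM. Both were highest in Yap-/-, where Isx was lowest, and lowest in the YapTg libraries, where Isx was highest. Of the 21 carotenoid and retinoid genes at the floor, Bcmo1 and Scarb1 were the 2 past 2-fold upward and Isx the 1 downward, and 16 of 21 lay above 0 with a median of 0.18. Across all genes 65.5% lay above 0. Rdh7, a retinol dehydrogenase gene named after its values were seen, was at 51.4 and 72.2 RPKM, and Bco2, named likewise, for the enzyme that cleaves carotenoids off centre, at 36.4 and 46.2 RPKM.

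Iron handling genes split by member. Absorbed iron is reduced at the apical surface by Cybrd1, carried in by the transporter DMT1 (Slc11a2), stored in ferritin, or exported by ferroportin (Slc40a1). Cybrd1 was at 42.2 RPKM in Yap+/-, 8.81 RPKM in Yap-/-, 17.4 RPKM in YapTg without the drug and 2.18 RPKM with it, 4.79 times lower in Yap-/- than in Yap+/- (95% interval 4.53 to 5.06). Slc40a1 was at 9.63, 3.01, 8.17 and 6.88 RPKM, 3.2 times lower (2.98 to 3.44) and lowest in the library without Yap. Slc11a2, named after its values were seen, was at 25.6, 14.9, 26.9 and 9.5 RPKM. Hmox1, for the haem oxygenase that frees iron from haem, was at 3.05, 0.923, 2.94 and 14.2 RPKM. These 4 genes were the only ones of 14 past 1.5-fold. Of the 14 genes, 10 lay above 0, against 65.5% of all genes, with a median of 0.04. The transferrin receptor gene Tfrc (43.7 and 47.2 RPKM), the ferritin gene Fth1 (1868 and 2042 RPKM) and Ireb2 (19.7 and 20.1 RPKM), for an iron-sensing regulator of their mRNAs, lay close in the pair; these 3 were chosen after their values were seen.

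Cyp1a1, a cytochrome P450 gene that the aryl hydrocarbon receptor switches on, had the largest ratio of all members. It was at 14.4 RPKM in Yap+/-, 0.0564 RPKM in Yap-/-, 0.255 RPKM in YapTg without the drug and 0.665 RPKM with it. The Yap+/- library stood alone, and both YapTg libraries were near the Yap-/- level. The other 8 genes of the receptor axis at the floor lay within 0.19 of 0, among them the receptor Ahr (4.64 and 3.99 RPKM), its repressor Tiparp (9.15 and 10.1 RPKM) and its targets Nqo1 (82.8 and 94.7 RPKM) and Ugt1a6a (108 and 116 RPKM). Ahr, Tiparp and Ugt1a6a were chosen after their values were seen. Of the 13 genes listed for this axis 9 were at the floor, with a median of 0.07. With no floor that median was -0.12, so it changed sign with the genes under the floor. Of 37 cytochrome P450 genes at the floor Cyp1a1 was the only one past 2-fold, 3 were past 1.5-fold in each direction, and the family median was 0.10. Glutathione S-transferases, 23 at the floor, had none past 1.5-fold and a median of 0.13. Cbr3, a carbonyl reductase gene of the antioxidant response, was at 23.2, 7.14, 12.5 and 3.13 RPKM and was 3.24 times lower in Yap-/- than in Yap+/- (2.83 to 3.73). The NRF2 and glutathione group around it had 18 of 27 genes above 0 and a median of 0.07, near the 65.5% and 0.05 of all genes.

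Single genes of plasminogen activation and the clotting surface were lower without Yap, while the group as a whole lay near 0. Plaur, the receptor that holds urokinase at the cell surface, was at 10.5 RPKM in Yap+/-, 1.88 RPKM in Yap-/-, 7.25 RPKM in YapTg without the drug and 85.8 RPKM with it, 5.57 times lower (95% interval 4.73 to 6.58). The gene of tissue plasminogen activator, Plat, was at 1.13, 0.0934, 0.44 and 4.69 RPKM, with a log2 ratio of -0.96 that the pseudocount holds under 2-fold. F3, which encodes tissue factor, the cell surface starter of clotting, was at 18.4, 6.31, 13.6 and 44.5 RPKM. All 3 genes were lowest in the library without Yap and highest with induced Yap. Plat reached the floor through Yap+/- alone, so the floor favoured a lower value for it in Yap-/-. Of 11 genes of plasminogen activation and the clotting surface at the floor 8 lay below 0, 2 of them past 2-fold, with a median of -0.14. The membrane protease gene St14 (60.4 and 58.8 RPKM) and its inhibitor Spint1 (91.9 and 94.2 RPKM) lay close in the pair, both chosen after their values were seen.

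Laminins are basement membrane trimers, and Lamb3 encodes a chain of the laminin under stratified and wounded epithelia. Lamb3 was at 9.83 RPKM in Yap+/-, 3.93 RPKM in Yap-/-, 7.11 RPKM in YapTg without the drug and 41.5 RPKM with it. It was lowest without Yap, by 2.5 times (2.33 to 2.68) against Yap+/-. The integrin genes whose products bind laminins, Itga6 (19.8 and 21.5 RPKM) and Itgb4 (14.8 and 12.9 RPKM), stayed within 0.18 of 0 and were chosen after their values were seen, as was Itga3 (22.6 and 23.1 RPKM). The group of 13 integrin and laminin genes had 10 below 0 and a median of -0.14. Epha2, an ephrin receptor kinase gene, was at 6.49, 2.22, 7.04 and 110 RPKM, and Gprc5a, an orphan receptor gene that retinoic acid induces, at 11.6, 3.99, 13.4 and 130 RPKM. For both, uninduced YapTg lay just above Yap+/-, and the Yap-/- library stood apart below. Lgals3, the gene of the glycan-binding protein galectin-3, was at 80.4, 31.9, 47.7 and 360 RPKM.

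**Figure D2:**
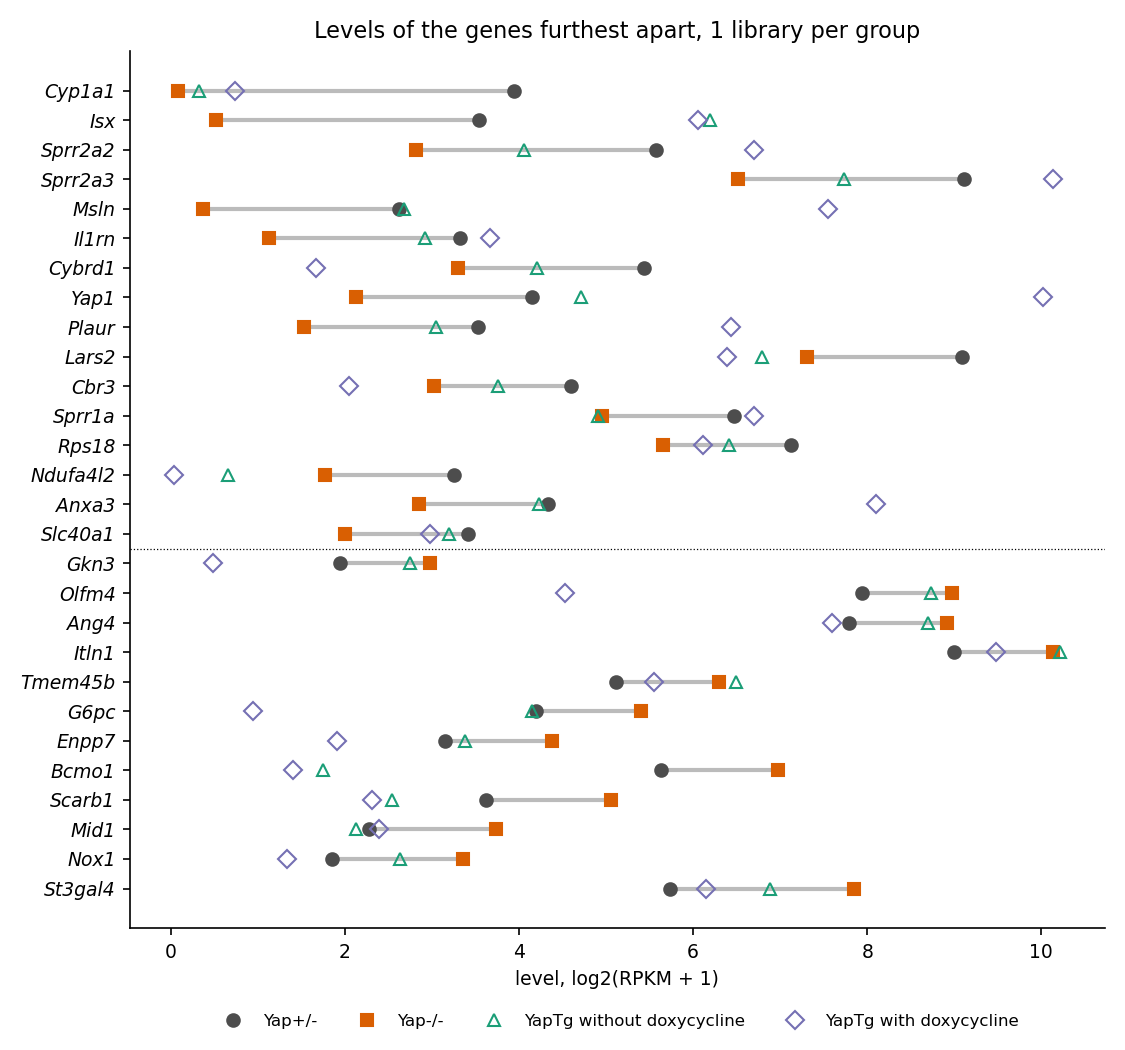
Levels on a log2(RPKM + 1) scale in the 4 libraries for the 16 lowest and the 12 highest log2 ratios among established genes at 5 RPKM or more, alpha-defensin copies left out; filled circles are Yap+/-, filled squares Yap-/-, and open symbols YapTg without (triangles) and with doxycycline (diamonds). Grey bars join the Yap pair, and the uninduced YapTg symbol falls inside the bar for Cybrd1, Plaur and St3gal4 but outside it for Isx, Bcmo1 and Lars2.

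Cornified envelope genes encode small proline-rich proteins that are cross-linked under the membrane of stratified epithelia and are known to be induced in damaged intestine. All 8 at the floor were lower without Yap, 6 of them past 2-fold, with a median log2 ratio of -1.43. Sprr2a1 (1.81 and 0.204 RPKM), Sprr2b (2.56 and 0.359 RPKM) and Sprr2f (1.76 and 0 RPKM) reached the floor through Yap+/- alone. These genes were named after their values were seen. The floor itself favours a lower value for them, and with no floor the group median was -0.18. Sprr1a was at 87.5 RPKM in Yap+/-, 29.9 RPKM in Yap-/-, 29 RPKM in YapTg without the drug and 103 RPKM with it, so the uninduced level equalled that without Yap within 0.04 on the log2 scale. Sprr2a3 was at 552, 90.5, 211 and 1120 RPKM, with uninduced YapTg between both. Sprr2a1, Sprr2a2 and Sprr2a3 are near copies, and the promoter windows of Sprr2a1 and Sprr2a2 are identical over all 300 bases, so reads can be divided among them. The median of the group was -0.57 for Yap-/- over uninduced YapTg and 0.94 for Yap+/- over uninduced YapTg. Medians over uninduced YapTg, here and below, apply the floor to that pair of libraries. This left 5 genes for the -0.57, so it covers a different set from the 8 above. These comparisons and the Yap pair also share libraries.

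Keratin, annexin and S100 genes also had medians below 0. Of 11 keratin genes at the floor 11 lay below 0, with a median of -0.42 (-0.20 over uninduced YapTg). None passed 2-fold and 2 passed 1.5-fold. Krt7, a keratin of simple ductal epithelia, was at 29.2, 14.3, 31.5 and 372 RPKM in Yap+/-, Yap-/-, uninduced YapTg and induced YapTg, and Krt23 at 24.2, 14.9, 16.6 and 49.8 RPKM. The abundant simple epithelial keratins lay closer, Krt8 at 755 and 580 RPKM and Krt19 at 835 and 646 RPKM, while Krt20 of mature villus cells was at 183 and 172 RPKM. Krt9, Krt14, Krt16, Krt17 and Krt42 kept a nearly fixed ratio to Krt19 in all libraries, and since these genes share sequence with it, their own levels are uncertain. Krt20, Krt9, Krt14, Krt17 and Krt42 were named after their values were seen.

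Of 10 S100 calcium-binding protein genes at the floor 10 lay at or below 0, with a median of -0.52 (-0.60 over uninduced YapTg). S100a6 was at 401, 196, 354 and 1321 RPKM, S100a14 at 22.4, 9.83, 20.9 and 174 RPKM and S100a11 at 112, 59.5, 99.8 and 406 RPKM. All 3 were lowest without Yap, with uninduced YapTg near Yap+/-. S100g, the vitamin D dependent calcium carrier of enterocytes, was at 626 and 537 RPKM, and S100a10, the annexin A2 partner, at 178 and 162 RPKM; both were named after their values were seen. Annexins, which bind membranes in the presence of calcium, had 8 of 11 genes below 0 and a median of -0.53, but of -0.08 over uninduced YapTg. Anxa3 was at 19.1, 6.23, 17.7 and 274 RPKM, Anxa5 at 11.8, 6.65, 13 and 38.7 RPKM and Anxa2, named after its values were seen, at 233, 161, 175 and 471 RPKM.

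Several of these genes are neighbours. On chromosome 3, from S100a14 to S100a11 in the GRCm38 gene order, 14 genes were at the floor, 10 of them past 1.5-fold and all 10 lower, with a median of -1.07. The rest of the chromosome had 16 of 516 genes (3.1%) past 1.5-fold, and all members together had 2.91%. The run was delimited after its values were seen, and its genes belong to families that share function as well as position. Within it, Sprr2a1, Sprr2b and Sprr2f reached the floor through Yap+/- alone, which favours a lower value. Sprr2a1, Sprr2a2 and Sprr2a3 are near copies and not separate measurements.

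Short sequence motifs were looked for in the 250 bases before the RefSeq start of each gene (GRCm38.p6), on both strands, because YAP acts through TEAD factors and often together with AP-1. A window was found for 61 of the 97 genes past 2-fold, 40 lower and 21 higher. The AP-1 motif TGANTCA stood in 10 of 40 lower genes (25%), in 3 of 21 higher genes (14.3%), in 5.44% of 8312 gene names at the floor and in 6.75% of 32851 windows of the same length. Of those 10 lower genes, Sprr1a, Sprr2b and Sprr2f belong to the same family and are not separate cases. The TEAD motif GGAATG stood in 9 of 40 lower genes (22.5%), 2 of 21 higher genes (9.52%), 12.4% of names at the floor and 12.6% of windows. Matches are a description of these letters and not of binding. The sites below are shown because they lie before lower genes described here; each is read 5′ to 3′ on the strand of its gene, with 1 AP-1 match in capitals; the stretch of F3 holds another just before it, left in lower case.
Il1rn, chr2:24336704-24336740, plus strand: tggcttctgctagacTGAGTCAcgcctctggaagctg
Plaur, chr7:24462399-24462435, plus strand: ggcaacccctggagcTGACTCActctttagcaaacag
Cybrd1, chr2:71117804-71117840, plus strand: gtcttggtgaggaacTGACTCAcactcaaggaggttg
Sprr1a, chr3:92486006-92486042, minus strand: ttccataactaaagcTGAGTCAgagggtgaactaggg
F3, chr3:121723387-121723423, plus strand: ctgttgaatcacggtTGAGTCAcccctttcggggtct
Cldn4, chr5:134947071-134947107, minus strand: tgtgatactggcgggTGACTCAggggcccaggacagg

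Sites of the TEAD motif are shown for Jub, with 2 sites close together, and for 4 other lower genes, with GGAATG or its reverse complement CATTCC in capitals.
Jub, chr14:54577827-54577862, minus strand: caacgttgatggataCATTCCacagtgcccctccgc
Jub, chr14:54577805-54577840, minus strand: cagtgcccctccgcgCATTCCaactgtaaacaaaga
Epha2, chr4:141301150-141301185, plus strand: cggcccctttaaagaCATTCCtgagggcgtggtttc
Edn1, chr13:42301254-42301289, plus strand: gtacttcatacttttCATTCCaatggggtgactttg
Lamb3, chr1:193302061-193302096, plus strand: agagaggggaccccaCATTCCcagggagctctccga
Isx, chr8:74873035-74873070, plus strand: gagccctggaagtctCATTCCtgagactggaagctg
GCGTG is the core of the xenobiotic response element, through which the aryl hydrocarbon receptor acts. These letters stood 54 bases before the start of Cyp1a1, and whether the receptor uses them there was not tested.
Cyp1a1, chr9:57697544-57697578, plus strand: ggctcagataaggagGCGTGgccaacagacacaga
Those letters stood in 13 of 40 lower genes (32.5%), 4 of 21 higher genes (19%) and 51.2% of names at the floor. The CDX motif TTTATNG stood in 7 of 21 higher genes (33.3%), which were Bcmo1, Nox1, Itln1, Defa-rs7, Gm10104, Gm15284 and Gm11062, in 4 of 40 lower genes (10%) and in 7.59% of names at the floor; Defa-rs7, Gm10104 and Gm15284 are related copies. The heat shock element GAANNTTC stood in 5 of 40 lower genes (12.5%) against 6.15% at the floor. The interferon-stimulated response element stood in 3 of 40 lower genes (7.5%) against 2.9%, and the HNF4-like motif CAAAGTCCA in none of the 61.

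Immediate early factor and ERK feedback genes lay mostly below 0. Of 21 immediate early factor genes at the floor 17 lay below 0, with a median of -0.20 (-0.04 over uninduced YapTg) and 0 past 2-fold. Atf3, a stress-induced transcription factor gene, was at 7.12, 3.19, 5.98 and 43.7 RPKM in Yap+/-, Yap-/-, uninduced YapTg and induced YapTg. Fosl1, for the AP-1 subunit FRA-1, was at 1.49, 0.701, 1.21 and 13.8 RPKM, and Fos, named after its values were seen, at 5.53, 3.59, 4.75 and 20.2 RPKM. In each case the library without Yap was lowest and the uninduced one lay just below Yap+/-. ERK feedback genes had 14 of 19 below 0, a median of -0.16 and 1, Epha2, past 2-fold lower. Dusp6 (10.4 and 11.1 RPKM) and Etv4 (6.31 and 7.11 RPKM), chosen after their values were seen, were among the 5 above 0. Edn1, for the vasoactive peptide endothelin-1, was at 2.06, 0.315, 1.32 and 35.4 RPKM and was named after its values were seen. EGF family ligand and receptor genes had 8 of 13 below 0, a median of -0.20 and 1 past 2-fold lower, the amphiregulin gene Areg, at 50.9, 22.7, 40.9 and 121 RPKM. Other signalling groups lay elsewhere. Wnt pathway genes had 18 of 23 above 0 and a median of 0.16 (-0.14 over uninduced YapTg), and Notch and secretory switch genes 14 of 17 above 0 and a median of 0.18 (-0.02 over uninduced YapTg). BMP and TGF-beta pathway genes had 14 of 21 below 0 and a median of -0.03.

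Among epithelial cytokine genes, Il1rn, which blocks the interleukin-1 receptor, was at 8.97, 1.19, 6.55 and 11.7 RPKM, 7.52 times lower in Yap-/- than in Yap+/- (95% interval 6.59 to 8.6). Cxcl16, a membrane-bound chemokine, was at 11.8, 3.99, 9.16 and 36.7 RPKM, and Tnfrsf12a, the receptor of TWEAK, at 30.2, 16.3, 26.9 and 182 RPKM. All 3 were lowest in Yap-/-. The group of 22 had 12 above 0, against 65.5% of all genes, and a median of 0.05, equal to that of all genes. The chemokine genes Ccl9 (7.55 and 13.1 RPKM) and Ccl6 (29.8 and 45.9 RPKM), chosen after their values were seen, lay the other way.

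Cldn4, which encodes a sealing claudin, was at 68.7, 33.2, 33 and 99.5 RPKM, so uninduced YapTg stood at the Yap-/- level and Yap+/- above both. Of 21 claudin and tight junction genes at the floor 19 lay below 0, with a small median of -0.08. Pard6b, a polarity gene, was at 14.6, 8.51, 14.5 and 77.9 RPKM, and Cldn15, for the sodium-permeable claudin of the villus, at 191 and 248 RPKM in the pair. Actin cytoskeleton and SRF target genes had 25 of 36 below 0, a median of -0.06 and 0 past 2-fold, with the gelsolin relative Capg furthest at 19.3 and 9.78 RPKM.

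Genes of sugar handling, fat absorption and the respiratory chain lay mostly above 0 in Yap-/-, nearly all by less than 2-fold. Of 13 genes of gluconeogenesis and sugar absorption at the floor 12 lay above 0, with a median of 0.48, 4 past 1.5-fold and 1 past 2-fold. G6pc, whose enzyme releases free glucose, was at 17.3 RPKM in Yap+/-, 41.3 RPKM in Yap-/-, 16.8 RPKM in YapTg without the drug and 0.919 RPKM with it, 2.39-fold higher in Yap-/- than in Yap+/- (95% interval 2.24 to 2.56). Fbp1, for fructose bisphosphatase, was at 45.9, 85.1, 28.5 and 2.88 RPKM, and Slc2a5, the fructose transporter gene, at 34.8, 64.1, 31.6 and 4 RPKM. In these 3 genes Yap-/- was highest and induced YapTg lowest, with both reference libraries between. Khk, for the fructose-phosphorylating ketohexokinase (215 and 322 RPKM), and the glucose carrier gene Slc5a1 (271 and 378 RPKM) lay in the same direction; both were named after their values were seen. The group median was 0.86 for Yap-/- over uninduced YapTg.

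Genes of fat absorption and lipoprotein assembly had 23 of 25 above 0 and a median of 0.22. Enpp7, the alkaline sphingomyelinase gene, was at 7.86, 19.8, 9.38 and 2.75 RPKM, Fabp2 at 1054, 1517, 479 and 120 RPKM and the colipase gene Clps at 43.9, 72, 81.8 and 43 RPKM. Clps is also among the Paneth cell markers used below, and its level was highest in uninduced YapTg. Fabp2 was named after its values were seen. The apolipoprotein gene Apoa1, chosen likewise, went the other way at 811 and 641 RPKM. Nuclear-encoded respiratory chain genes had 81 of 83 above 0, a narrow spread and a median of 0.18, with Cox7a1 at 70.5 and 115 RPKM. The exception past 2-fold was Ndufa4l2, a hypoxia-induced relative of a complex IV subunit, at 8.51, 2.42, 0.58 and 0.0277 RPKM. Brush border genes had 21 of 29 above 0 and a median of 0.10, close to the 65.5% and 0.05 of all genes, and UDP-glucuronosyl and sulfotransferase genes 14 of 20 and 0.06. Mitochondrially encoded genes took 6.02% of the summed RPKM in Yap+/- and 5.66% in Yap-/-.

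Markers of several epithelial cell types lay above 0 together with these genes. Enterocyte markers had 19 of 24 above 0 and a median of 0.23, with summed levels of 14536 RPKM in Yap+/-, 19809 RPKM in Yap-/- and 9754 RPKM in uninduced YapTg. Goblet cell markers had 19 of 20 above 0 (median 0.35; sums of 2962, 3905 and 3066 RPKM), and Paneth cell markers 15 of 17 (0.45; 3447, 6123 and 6531 RPKM). Tuft cell markers had 14 of 15 above 0 (median 0.36; sums of 169, 241 and 137 RPKM), and crypt base stem cell markers 18 of 19 (0.27; 547, 855 and 853 RPKM). Over uninduced YapTg the medians were 0.67 for enterocyte, 0.03 for goblet, -0.02 for Paneth, 1.25 for tuft and -0.26 for crypt base stem cell markers, which is further above 0 for enterocyte and tuft cell markers, near 0 for goblet and Paneth cell markers and below it for crypt base stem cell markers. The part of cell type shares in the metabolic genes was not tested.

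Hypoxia response genes had 19 of 21 below 0 and a median of -0.36, with 6 past 1.5-fold and 0 past 2-fold. Ankrd37 was at 20.9, 11.9, 9.17 and 1.54 RPKM in Yap+/-, Yap-/-, uninduced YapTg and induced YapTg, and Bnip3, for a mitophagy receptor, at 17.2, 10.2, 4.95 and 1.11 RPKM. Vegfa was at 15.8, 10.1, 11.9 and 9.22 RPKM and Egln3, for a prolyl hydroxylase that marks HIF for decay, at 45.3, 29.6, 18.3 and 7.43 RPKM, both named after their values were seen. For Ankrd37, Bnip3 and Egln3 the Yap+/- library was the highest of the 4, and the group median of Yap-/- over uninduced YapTg was 0.18, the opposite sign. Adm, for the peptide adrenomedullin, differed, being lowest without Yap at 1.23, 0.256, 1.44 and 3.3 RPKM. Glycolysis genes had 16 of 22 below 0 and a median of -0.15, which was likewise of the opposite sign, 0.33, over uninduced YapTg. The liver-type pyruvate kinase gene Pklr (214 and 325 RPKM) was above 0, while Hk1 (4.68 and 2.12 RPKM), Aldoa (363 and 295 RPKM) and Pgk1 (41.4 and 31.3 RPKM) were below it, Aldoa and Pgk1 chosen after their values were seen.

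**Figure D3:**
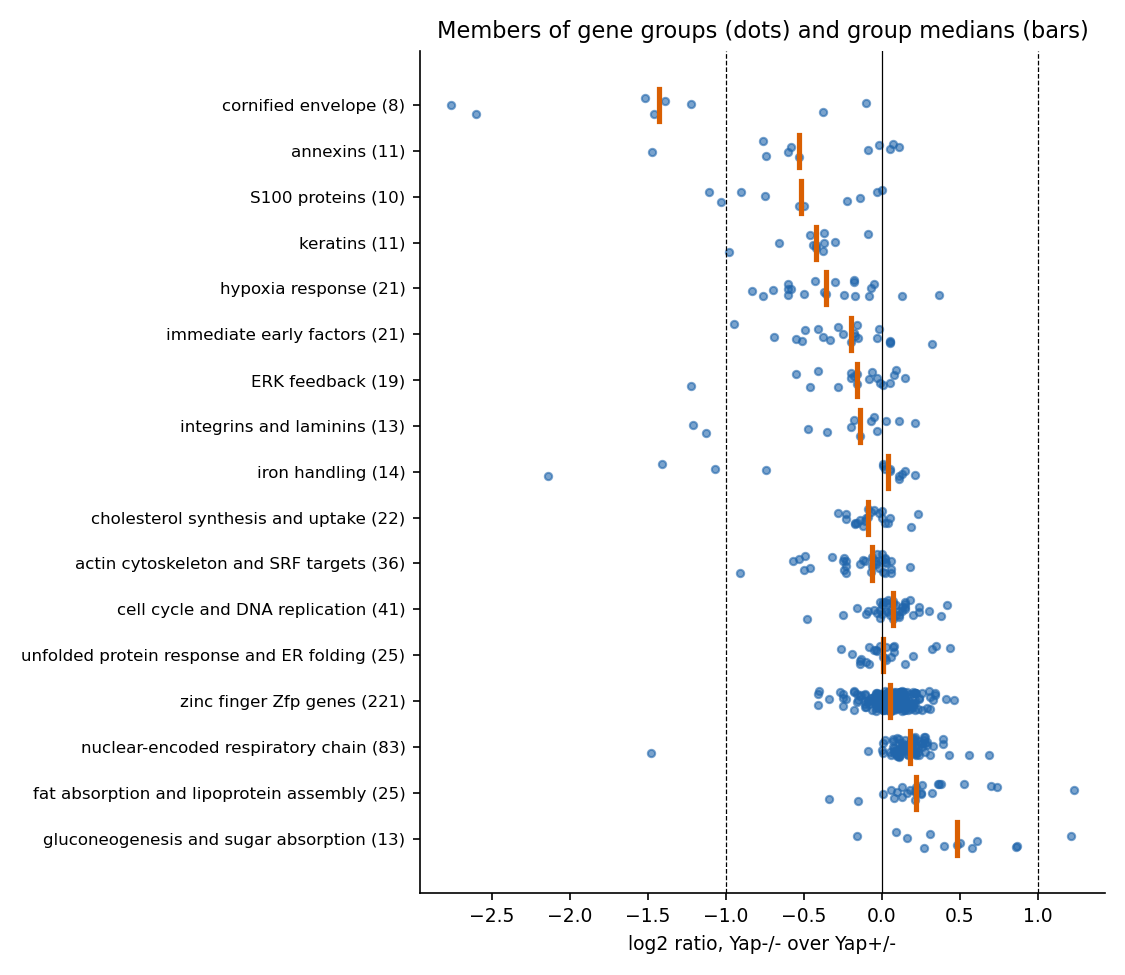
Log2 ratio of Yap-/- over Yap+/- for the members of 17 gene groups at 1 RPKM or more (1 dot per gene, number of genes in brackets; vertical jitter has no meaning) with the group median as a bar. Of the groups shown, cornified envelope genes have the lowest median (-1.43) and gluconeogenesis and sugar absorption genes the highest (0.48), while cell cycle (0.07), unfolded protein response (0.01) and Zfp genes (0.05) sit near the median of all genes.

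St3gal4 was the gene furthest higher without Yap. It encodes a sialyltransferase that caps galactose on glycoproteins, and was at 52.2 RPKM in Yap+/-, 230 RPKM in Yap-/-, 117 RPKM in YapTg without the drug and 69.7 RPKM with it. The fold was 4.42 (95% interval 4.25 to 4.59), and the uninduced level lay between both libraries of the pair. Of 53 sialyl, fucosyl, galactosyl and GalNAc transferase genes at the floor it was the only one past 2-fold, and Galnt11, which starts O-linked glycans, came next at 2.79, 6.47, 7 and 5.06 RPKM. The family median was 0.05. Nox1, the superoxide-producing oxidase of the colon and crypt, was at 2.61, 9.22, 5.21 and 1.51 RPKM, 3.53-fold higher (3.07 to 4.07). Its partners Noxo1 (10.5 and 13.2 RPKM) and Noxa1 (5.2 and 5.52 RPKM), chosen after their values were seen, differed less, and Nos2, the inducible nitric oxide synthase gene, was at 1.95, 0.578, 1.97 and 1.33 RPKM. Mid1, an X-linked ubiquitin ligase gene, was at 3.83, 12.3, 3.38 and 4.24 RPKM, so Yap-/- stood above the other 3 libraries.

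Other carriers and enzymes past 2-fold upward were few. Of 209 solute carrier genes at the floor 1 was past 2-fold higher and 1 lower, Slc30a2 and Slc40a1, and 156 lay above 0 with a median of 0.09. Slc30a2, for a zinc exporter into Paneth cell granules, was at 3.21, 7.54, 4.43 and 0.753 RPKM. Slc13a2, for a citrate carrier, lay just under the threshold at 12.1, 25.2, 10.8 and 3.25 RPKM. Of 16 genes of bile acid handling and regional identity at the floor 6 lay above 0 and 10 below, with a median of -0.11 and 1 past 2-fold in each direction. Ostb, for a subunit of the basolateral exporter, was at 16.3, 34, 27.1 and 5.17 RPKM, while Fabp6, for the ileal bile acid carrier of the cytosol, was at 12.7, 5.77, 86.7 and 3.13 RPKM. Fabp6 stood far above the pair in uninduced YapTg, and the segment of intestine that gave each culture is not stated. Hpgds, for the prostaglandin D synthase of tuft cells, was at 11.2, 23.4, 8.75 and 1.62 RPKM, with the other 3 libraries below Yap-/-. In bulk libraries more cells of a type and more RNA per cell cannot be told apart.

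Alpha-defensin genes, which encode the antimicrobial peptides of Paneth cell granules, gave a second run of neighbours. On chromosome 8, from Gm10104 to Defa24, 20 genes were at the floor. Of these 17 were past 1.5-fold and all 17 were higher, with a median of 0.95, while the rest of the chromosome had 17 of 591 (2.88%). Defa24 was at 2358, 4765, 6247 and 4401 RPKM and Defa3 at 106, 315, 289 and 187 RPKM. The family took 1.38% of the summed RPKM in Yap+/-, 2.49% in Yap-/-, 4.77% in YapTg without the drug and 3.56% with it. The Yap+/- library was the lowest of the 4, and these copies share reads, so they are not separate measurements. The run was delimited after its values were seen.

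Genes of antigen presentation went both ways. The group of 19 at the floor had 14 above 0, a median of 0.22 (0.01 over uninduced YapTg), and 3 past 1.5-fold in each direction. Psmb8, for an immunoproteasome subunit, was at 5.95, 12.2, 16.4 and 6.77 RPKM, and the class I gene H2-D1 at 106, 195, 192 and 216 RPKM. H2-T23, for the non-classical class I molecule Qa-1, was at 42.7, 21.4, 26.8 and 29.1 RPKM, and H2-T22, named after its values were seen, at 11.2, 5.83, 10.6 and 14.1 RPKM. On chromosome 17, from Rps28 to Trim40, 98 genes were at the floor, with 5 higher and 7 lower past 1.5-fold and a median of 0.03; the rest of the chromosome had 15 of 443 (3.39%). The run was delimited after its values were seen.

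Most other groups stayed close to the median of all genes. Of 78 groups with at least 5 genes at the floor, 58 had a median from -0.2 to 0.2, 14 above and 6 below; the groups overlap in members. Cholesterol synthesis and uptake genes had 16 of 22 below 0 and a median of -0.09, with the furthest, Lss, at 18 and 14.6 RPKM. The unfolded protein response and protein folding group had a median of 0.01 (-0.22 over uninduced YapTg), with Hspa5, the abundant chaperone gene BiP, named after its values were seen, at 194 and 162 RPKM. Cell cycle and DNA replication genes had 29 of 41 above 0, against 65.5% of all genes. Their median was 0.07 (-0.35 over uninduced YapTg) with 0 past 2-fold, and the inhibitor gene Cdkn1a was furthest at 90.6 and 64.8 RPKM. Mitochondrial ribosomal protein genes had 66 of 76 above 0 with a median of 0.09 and none past 1.5-fold. Zinc finger genes named Zfp, 221 at the floor, had none past 1.5-fold and a median of 0.05. No Hox gene reached the floor.

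Some genes past 2-fold are uncertain because reads of other copies may reach them. Rps18 was at 139, 49.2, 84.2 and 68.4 RPKM and Rps28 at 11.7, 24.7, 15.1 and 13.4 RPKM. Both have many processed copies, and the other 76 of 78 cytosolic ribosomal protein genes were under 2-fold, with a family median of 0.01. Both also lie on chromosome 17, where Rps28 is an end of the run described above, and the part of position was not tested. Histone genes had 3 of 19 past 2-fold, Hist1h2al, Hist4h4 and Hist1h4f, all lower and near the floor. Hist1h2al was at 2.79 RPKM in Yap+/- and listed at 0 in the other 3 libraries. Lars2, the mitochondrial leucyl-tRNA synthetase gene, which in mouse contains a stretch similar to ribosomal RNA, was at 544, 158, 110 and 82.7 RPKM, and the Yap+/- library was the highest of the 4.

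The uninduced YapTg library placed the genes past 2-fold differently in each direction. Of the 61 lower genes 10 had an uninduced level beyond Yap+/-, 26 nearer to Yap+/-, 15 nearer to Yap-/- and 10 beyond Yap-/-. Of the 36 higher genes 7 lay beyond Yap+/-, 8 nearer to Yap+/-, 10 nearer to Yap-/- and 11 beyond Yap-/-. Measured against uninduced YapTg, 22 of the 61 lower genes were past 2-fold lower as well, and 9 of the 36 higher genes past 2-fold higher. Over all genes at the floor of that comparison, 87 (0.798%) were 2-fold lower and 173 (1.59%) 2-fold higher in Yap-/-; between Yap+/- and uninduced YapTg, 121 (1.11%) were higher and 79 (0.726%) lower in Yap+/-. These comparisons share libraries with the Yap pair. A gene chosen for an extreme value in 1 library tends to lie nearer to the other in any further library, so the positions are a description. The lower genes with an uninduced level at or beyond that without Yap include Lars2, Sprr1a, Ndufa4l2, Xpnpep2, Akr1b8 and Cldn4. Xpnpep2, a brush border aminopeptidase gene, was at 11.1, 4.28, 2.15 and 2.95 RPKM, and Akr1b8, an aldo-keto reductase gene named after its values were seen, at 34.1, 16.2, 15.5 and 45.9 RPKM.

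**Figure D4:**
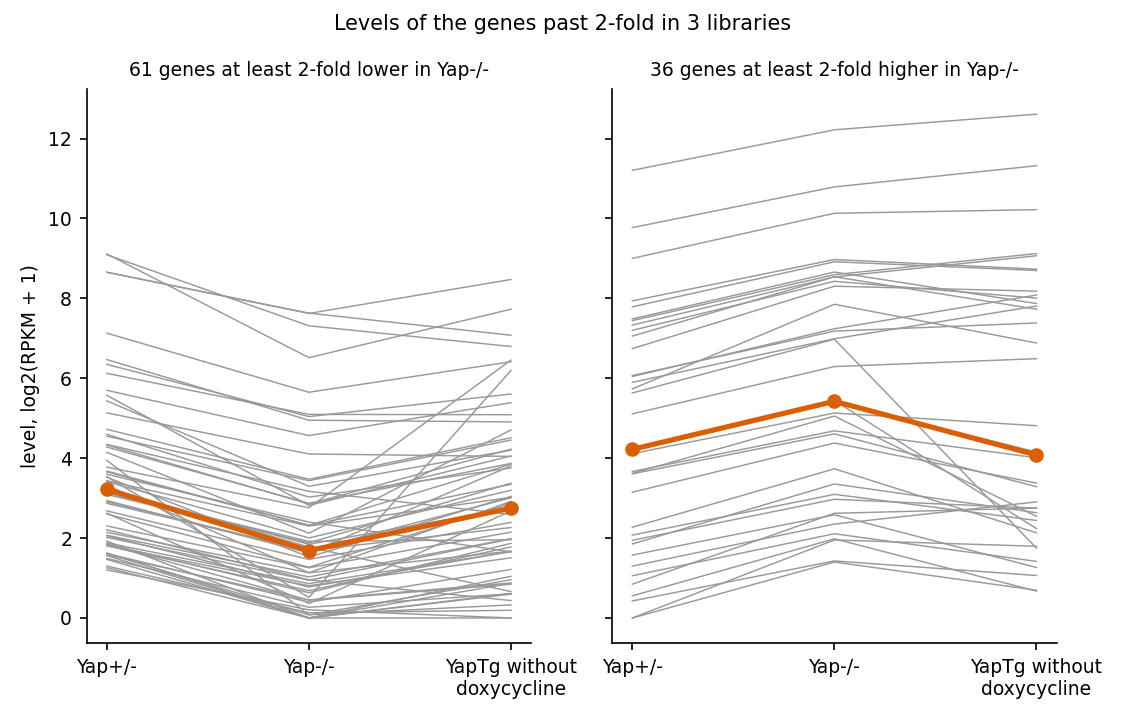
Levels on a log2(RPKM + 1) scale in Yap+/-, Yap-/- and uninduced YapTg, 1 grey line per gene, for the 61 genes lower (left) and the 36 higher (right) past 2-fold in Yap-/-; orange points join the medians. The medians of the lower genes were 3.22, 1.69 and 2.75 and those of the higher genes 4.22, 5.42 and 4.08.

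The pair of YapTg libraries shares no library with the Yap pair, so the same genes could be read with Yap induced. No organoids without the transgene were given doxycycline, and effects of the drug and of Yap cannot be told apart. Of the 61 genes lower without Yap, 53 were at the floor in the YapTg pair, with a median log2 ratio of 1.68. Of these, 38 (71.7%) were past 2-fold higher with doxycycline and 6 (11.3%) past 2-fold lower. The 38 include Yap1, floxed in the Yap pair and the transgene in the other, so its direction followed from the design. They also include the near copies Sprr2a1, Sprr2a2 and Sprr2a3, which are not separate measurements. Syt8, Sprr2a1, Sprr2b and Gm17237, also among the 38, reached that floor through the induced library alone, so the floor favoured their direction. Syt8 and Gm17237 were named after their values were seen. Over all 11108 genes at that floor 650 (5.85%) were higher and 644 (5.8%) lower, with a median of -0.04. Of the 36 genes higher without Yap, 35 were at the floor, 2 of them (5.71%) higher and 12 (34.3%) lower with doxycycline, with a median of -0.69. Some of the 12, such as G6pc and Slc30a2, reached that floor through the uninduced library alone, which likewise favours a lower value. The 6 genes lower without Yap and lower again with doxycycline were Cybrd1, Cbr3, Fabp6, Btnl6, AA467197 and 2210407C18Rik. Btnl6, a butyrophilin-like gene of intestinal epithelium, was at 25.4, 10.1, 21.8 and 10.4 RPKM, lowest without Yap and with induced Yap. AA467197 was at 19.3, 8, 5.03 and 1.93 RPKM and 2210407C18Rik at 402, 197, 134 and 20.1 RPKM, both highest in Yap+/- and both named after their values were seen. The 2 genes higher in both comparisons, Gm17379 and Gm17579, are predicted genes without established names. Gm17579 reached the floor of the YapTg pair through the induced library alone.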

How the data were processed

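Single RNA-seq libraries of mouse small intestinal organoids, 4 in all and 1 per group, were grouped by the genotype and doxycycline labels. Per the submitters' processing notes, CASAVA 1.8, FastQC and TopHat 1.4.1 were used with mm9; no source used here gives the read counter, annotation, strand setting or multiple-match rule. The authors deposited 1 table of 22632 genes, whose values were identified as RPKM from their behaviour, since no header names the unit. All 4 columns were used and 0 were left out. Of the identifiers, 20750 (91.7%) matched current names, and 129 symbols belong to more than 1 identifier.

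Deposited RPKM were used as they stand, since the annotation at hand (GENCODE M21, GRCm38) is of another build. Gene order was taken from it, and its gene lengths were used to recover library totals and read numbers. Log2 ratios used a pseudocount of 1, which understates differences of low genes, and genes had to reach a floor of 1 RPKM in either library. That floor favours a lower Yap-/- value for genes that reached it through Yap+/- alone. Those named near the floor include Jub, Hmox1, Plat, Fosl1, Edn1, Nos2 and Adm. A fold is a plain ratio of RPKM. Library totals and read numbers were recovered from the RPKM steps and gene lengths, for 17377 of 17378 genes above 0; only 6714 fitted lengths equal GENCODE's, so read numbers rest partly on the annotation. Of read numbers from 1 to 19, 65.5% were even, as when both mates of a pair are counted, so exact (Clopper-Pearson) 95% intervals of a fold used pairs. PCR copies are not independent molecules, so they cover counting error only. A gene listed at 0 can be missing from the counting: Hmgcs1, a gene of cholesterol synthesis, is listed at 0 in all 4 libraries. The scripts were tested on simulated data.

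The gene lists (56) and families (26), and the choice of this comparison, were made with earlier results of these data known. Genes named are Yap1, its 10 neighbours on each side, established names past 2-fold at 5 RPKM or more (the 30 furthest per direction) and the 3 furthest members of each list; others are marked, apart from marker names and the ends of gene runs. Other settings tried were upper-quartile and median-ratio scaling, pseudocounts of 0.1 and 5, a floor of 5 RPKM or none, 1.5-fold and 4-fold thresholds, a counting interval that excludes 1, established names alone and uninduced YapTg as the reference. Promoter sequences are from RefSeq (GRCm38.p6). Python 3.11.15, pandas 2.3.3 and scipy 1.17.1 were used. Some results are not reported here.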

Additional observations from a re-analysis of the deposited data

How the results depend on the processing

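Each group had 1 library, so sizes rest on single cultures, no spread between replicates is known, and depth limits mainly genes near 1 RPKM. No paired analysis was possible because each group has 1 library and no test was made. Of 36 higher and 61 lower genes, the counts were 66 and 112 with a pseudocount of 0.1 and 20 and 19 with a pseudocount of 5. They were 144 and 168 at 1.5-fold and 1 and 8 at 4-fold. A floor of 5 RPKM left 39 lower genes, established names left 22 higher genes, and uninduced YapTg as the reference gave 173 higher genes. Scaling by median ratios gave 28 and 69 and moved the median of all genes by -0.04; no floor and a counting interval that excludes 1 kept both counts within 1.5 times. Of the 50 named genes past 2-fold, 43 stayed past it under either scaling, 28 with a pseudocount of 5 and 50 with 0.1, all in the same direction. Against uninduced YapTg 22 stayed past 2-fold and 9 changed direction, among them Lars2 (0.52), Sprr1a (0.04), Ndufa4l2 (1.11), Xpnpep2 (0.74), Defa-rs7 (-0.53), Tmem45b (-0.20), Itln1 (-0.09) and Defa24 (-0.39). With that reference 9 group medians past 0.2 in size changed sign: mucins and mucus (-0.19), Reg and antimicrobial proteins (-0.02), ion and water transport (-0.29), interferon response (-0.10), crypt base stem cell markers (-0.26), progenitor markers (-0.10), Paneth cell markers (-0.02), hypoxia response (0.18) and alpha-defensins (-1.15). The cause was not tested. No group median past 0.2 changed sign under another scaling, pseudocount or floor. Some group medians given lay within 0.04 of 0. Under upper-quartile scaling, those of Hippo components, iron handling, cytosolic ribosomal proteins and the unfolded protein response reached or crossed 0. That of BMP and TGF-beta pathway genes went from -0.03 to -0.07.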
